A study of Mus musculus with 42 samples.

Results

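Myl7, Myl4, Myh6, Nppa, Sln, Tnnt2 and Tnni3 are 7 genes of heart muscle, and the arrays labelled aorta carried all of them at levels that differed widely from one mouse to the next, 996-fold between the lowest and the highest for Myl7. They were chosen by name as a mark of heart tissue near the root of the aorta, and they are 7 of the 21186 genes with a symbol on the array, read by 13 of its 41174 probes. Expression was measured in the aorta and the skeletal muscle of 7 groups of male mice, with 3 mice per group and 1 single-colour Agilent array per sample, 42 arrays in all. The healthy group (G) were C57BL/6 mice given saline by gavage, and the diabetic group (A) were KK/Ay mice, a strain with spontaneous type 2 diabetes, also given saline. The macroangiopathy group (C) were KK/Ay mice on a high-fat diet and water containing L-NAME, which blocks nitric oxide synthase, followed by saline. The remaining groups had the same diet and L-NAME and were then treated by gavage with the SHENQI compound (B), with its yangyinyiqi formula (D), with its huoxue formula (E) or with rosiglitazone (F). All mice were adult, the 3 mice of a group were drawn at random for RNA, and the healthy mice differ from all others in strain as well as in disease. Where along the aorta the tissue was taken is not given in the sources used here.

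Heart muscle contracts through myosin sliding on actin, and the calcium signal is read by the troponin complex. The atria and the ventricles use different versions of several of these proteins. Myl7 is the regulatory and Myl4 the essential light chain of atrial myosin. Myh6 is the alpha heavy chain, which in adult mice serves both the atria and the ventricles. Tnnt2 and Tnni3 are the cardiac forms of troponin T, which ties the complex to the thin filament, and of troponin I, its inhibitory subunit. Nppa is the precursor of atrial natriuretic peptide, the hormone that atrial cells secrete, and Sln is sarcolipin, a small inhibitor of the calcium pump that is made in atria and in skeletal muscle. The root of the aorta is seated in the heart, beside the atria. In RNA from a whole vessel, fewer cells of a type and less RNA per cell cannot be told apart.

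Of the 7 members, 6 have 2 probes and Myl7 has 1, all of 60 bases. The probes shown here are those on which the reading of Myl4 and Myh6 depends, with positions in the mm9 build that the array files name. The probes of Myl4 both span 371 bases of the genome at chr11:104445422-104445792 and chr11:104445435-104445805 on the plus strand, which for 60-base probes means that they cross a splice junction. The stretch of 47 bases in capitals is shared, so they are not independent readings, and their correlation over the aorta arrays was 0.998.
Myl4, first probe: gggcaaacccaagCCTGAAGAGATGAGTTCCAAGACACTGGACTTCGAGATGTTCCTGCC
Myl4, second probe: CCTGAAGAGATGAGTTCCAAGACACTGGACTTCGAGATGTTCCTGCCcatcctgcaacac
The probes of Myh6 do not overlap and lie at chr14:55563592-55565177, across a junction, and at chr14:55565256-55565315, both on the minus strand. Their correlation over the aorta arrays was 0.991.
Myh6, across a junction: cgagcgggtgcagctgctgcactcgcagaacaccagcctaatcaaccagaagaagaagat
Myh6, within an exon: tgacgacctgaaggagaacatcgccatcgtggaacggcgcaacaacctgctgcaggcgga
Myh6 lies beside Myh7, the slow or beta heavy chain, which is a near copy of it, and whether a probe also binds Myh7 RNA was not tested. The second probes of Sln and Tnnt2, matched to the clones AK009809 and AK086260 in place of the reference transcript, had aorta medians of 4.58 and 3.89 on the log2 scale, against 12.62 and 11.08 for the first probes. The mean over probes, which the tests use, therefore understates differences in these genes, and the brightest probe is given beside it.

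The promoters were read because the members moved together. RefSeq windows (GRCm38.p6) were found for 6 of the 7 members, with 7 start sites, and the 250 bases before the start are printed for Myl7 and Nppa, which hold more than 1 kind of match. Capitals mark matches on either strand to a GATA site (AGATAA or AGATAG or TGATAA or TGATAG), an NKE site of Nkx2-5 (TNAAGTG) or a CArG box. No matches overlap in these windows.
Myl7, chr11:5898783-5899032, minus strand: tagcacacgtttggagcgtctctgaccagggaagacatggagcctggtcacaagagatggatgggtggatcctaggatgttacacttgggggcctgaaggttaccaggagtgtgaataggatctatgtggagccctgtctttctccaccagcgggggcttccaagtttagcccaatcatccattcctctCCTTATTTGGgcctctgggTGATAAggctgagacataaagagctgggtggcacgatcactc
Nppa, chr4:148000472-148000721, plus strand: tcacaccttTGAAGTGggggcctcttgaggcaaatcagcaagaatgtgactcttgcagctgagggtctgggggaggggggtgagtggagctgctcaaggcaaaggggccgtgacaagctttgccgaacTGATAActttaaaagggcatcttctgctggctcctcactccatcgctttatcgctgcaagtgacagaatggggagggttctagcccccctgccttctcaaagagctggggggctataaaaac
The GATA match starts at position -42 in Myl7 and at -122 in Nppa, counted back from the start site. In Myl7 the CArG match spans positions -61 to -52. A GATA match was held by 4 of the 7 windows and by 26.6% of all 32817 windows of the same length, an NKE match by 1 of 7 and by 10.1%, a CArG box by 1 of 7 and by 1.47%, and a MEF2 site by 0 of 7 and by 1.69%. A match describes the letters only.

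The arrays themselves were checked against their tissue labels first. Between 57.9% and 73.5% of probes were well above background in the aorta arrays, the scanner software's own call. The mean of 7 smooth muscle genes (Acta2, Myh11, Tagln and others) was 11.45 to 13.84 on the log2 scale in 20 of the 21 aorta arrays and 8.78 in healthy array 1, which is inside the range of the skeletal muscle arrays, 8.45 to 9.82. That array is read as the library labelled healthy aorta 1. The Myl7 differences that use it and the C vs G calls are given with and without it. The fast skeletal muscle genes, 11 in number, averaged 6.61 to 14.33 in aorta, with the highest values in diabetic array 2 and rosiglitazone array 1, and 15.36 to 16.4 in muscle. Brown fat genes averaged 10.73 to 15.71 in aorta. The means of the liver, lung, thymus and kidney or adrenal lists stayed between 3.55 and 6.3 in aorta. Single genes of these lists reached higher levels on an aorta array. The highest were 8.97 for Alb (liver), 9.95 for Scgb1a1 (lung), 9.23 for Cd8a (thymus) and 6.45 for Kap (kidney or adrenal). No member probe was saturated on any array.

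On the mean of probes, Myl7 had the widest range of the members, and on the brightest probe Sln did. For Myl7 the log2 intensity in aorta was 9.77, 13.1 and 13.74 in the healthy mice and 13.29, 14.55 and 15 in the diabetic mice. In the macroangiopathy mice it was 14.45, 13.32 and 5.27. So 1 macroangiopathy mouse had the lowest level of all 21 arrays while another was above every healthy mouse. After treatment with SHENQI it was 15.23, 13.16 and 12.8, and with yangyinyiqi 6.01, 11.1 and 8.74. It was 9.52, 6.99 and 13.85 after huoxue, and 9.46, 13.39 and 14.48 after rosiglitazone. The gap between the lowest and the highest mouse of a single group was 580-fold in the macroangiopathy group, 116-fold in the huoxue group and 3.27-fold in the diabetic group. All 21 arrays were well above background.

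On the mean of their probes, Myl4, the partner light chain, ran from 7.96 to 13.63, a 50.9-fold range, and its lowest and highest arrays were macroangiopathy array 3 and rosiglitazone array 3. The heavy chain Myh6 ran from 4.38 in rosiglitazone array 1 to 12.41 in SHENQI array 1, a 261-fold range. Tnni3 ran from 5.16 to 11.72, or 94.4-fold. The bright probe of Tnnt2 ran from 5.51 to 12.9, or 168-fold. For Tnni3 the diabetic arrays read 9.62, 11.11 and 11.72 and the yangyinyiqi arrays 5.43, 7.75 and 6.1, with no overlap, but these groups are not compared by the design and were not tested.

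For the hormone gene Nppa, the log2 intensity of the brighter probe was 8.16, 10.32 and 10.27 in healthy, 11.53, 10.94 and 10.1 in diabetic and 12.18, 8.94 and 4.87 in macroangiopathy aorta. It was 11.41, 8.29 and 9.05 after SHENQI and 5.27, 5.23 and 6.61 after yangyinyiqi. It was 5.01, 5.47 and 9.8 after huoxue and 4.91, 8.9 and 10.85 after rosiglitazone. The 3 yangyinyiqi arrays were all low, and each of the macroangiopathy, huoxue and rosiglitazone groups held both low and high arrays.

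**Figure D1:**
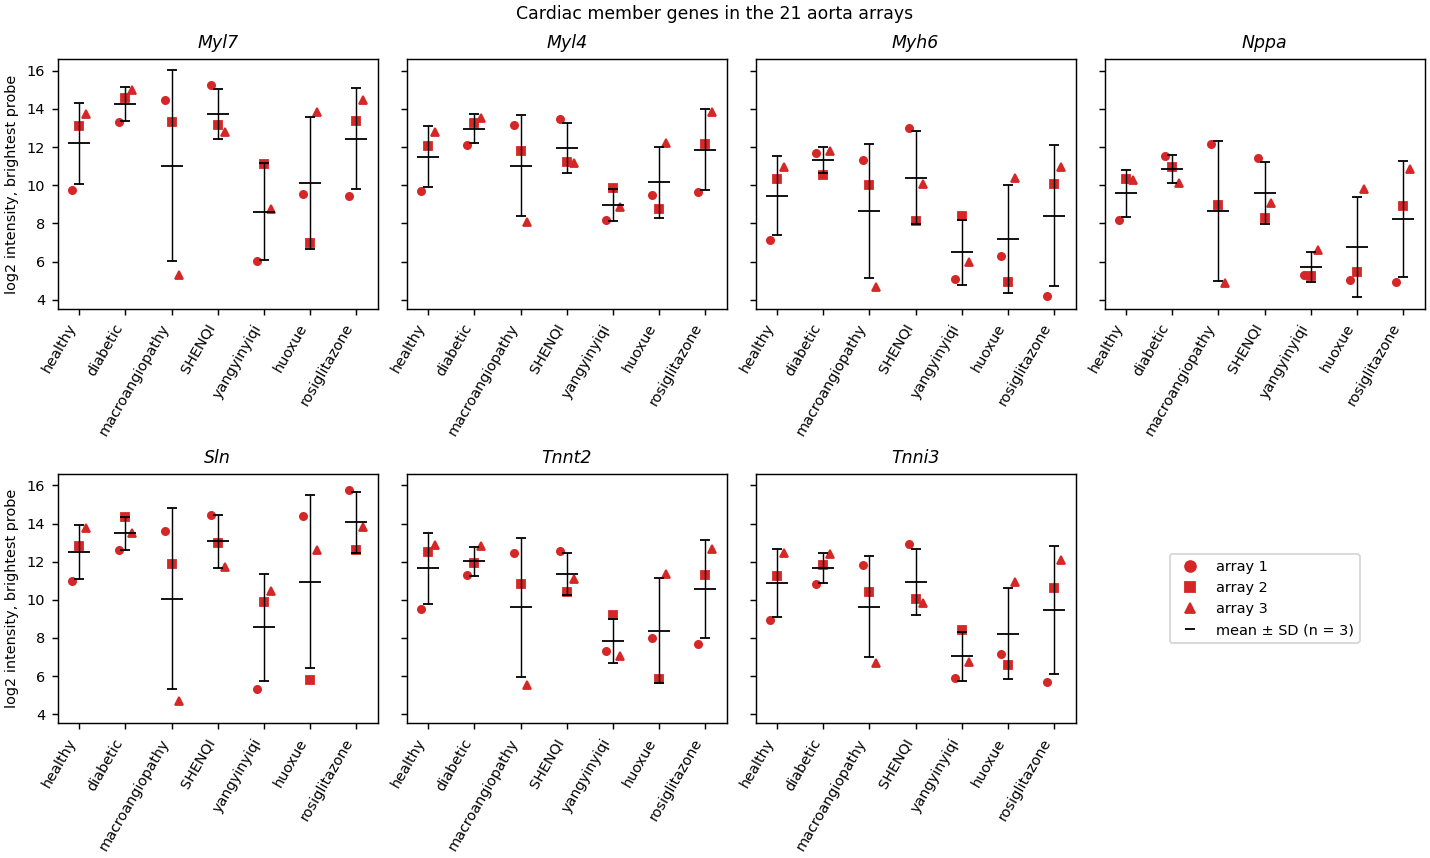
Log2 intensity of the brightest probe of each of the 7 genes (vertical axis) in the 7 groups of aorta arrays (horizontal axis). Points are single arrays, marked by replicate number, and bars give the mean and SD of 3 arrays. In Myl7 the macroangiopathy arrays span 5.27 to 14.45, while the diabetic arrays lie between 13.29 and 15.

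The order of the groups was much alike from gene to gene. The yangyinyiqi group had the lowest mean for all 7 members, and the diabetic group had the highest for Myl7, Myl4, Myh6, Nppa and Tnni3, 14.28 ± 0.886 (SD, n = 3) for Myl7. For Sln the rosiglitazone group was highest, and for the mean of the Tnnt2 probes the healthy group. For Myl7 the order was diabetic, SHENQI, rosiglitazone, healthy, macroangiopathy, huoxue and yangyinyiqi, with 8.617 ± 2.55 for the last (SD, n = 3). For every member, each group's arrays overlapped those of the next group in its order, so no neighbours differed beyond their spread. The diabetic and yangyinyiqi arrays, at the ends of the Myl7 order, did not overlap.

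The comparisons of the design ask whether disease (A vs G, C vs G, C vs A) or treatment (B, D, E and F vs C) changed these genes. With limma and Benjamini-Hochberg adjustment over the 15815 genes tested in aorta, 0 of 7 members passed an adjusted p of 0.05 in any of the 7 comparisons, and 0 of 7 passed an unadjusted p of 0.05. For A vs G the share of all genes past these thresholds was 3.26% adjusted and 18.7% unadjusted. For C vs G it was 6.42% and 24.1%, and without the library labelled healthy aorta 1 it was 3.36% and 19%, with 1 of 7 members past the unadjusted threshold and 0 past the adjusted one. The other 5 comparisons had 0% adjusted. At the unadjusted threshold the share was 1.89% for C vs A, 1.42% for B vs C, 0.443% for D vs C, 0.86% for E vs C and 2.79% for F vs C. In every comparison the arrays of the groups overlapped for every member.

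These results do not show that the groups were alike, because the intervals were wide. For A vs G the difference in Myl7 was 2.07 on the log2 scale (SE 2.16, 95% interval -2.48 to 6.63, limma adjusted p = 0.652), and without the library labelled healthy aorta 1 it was 0.854. For C vs A it was -3.27 (interval -7.83 to 1.29, limma adjusted p = 1). For C vs G it was -1.19, with an interval of -5.75 to 3.36, and -2.41 without that library. Among the treatments, the difference in Myl7 from the macroangiopathy group was 2.72 for SHENQI, with an interval of -1.84 to 7.28. It was -2.39 for yangyinyiqi, with an interval of -6.95 to 2.17. It was -0.89 for huoxue and 1.43 for rosiglitazone, with intervals of -5.45 to 3.67 and -3.13 to 5.99. The smallest unadjusted p values by limma over the 49 tests were 0.092 for Sln in F vs C, a difference of 2.13, and 0.0956 for Nppa in D vs C, a difference of -2.64. Over the 7 members the median difference from the healthy group was 1.21 for diabetic and -1.03 for macroangiopathy aorta. It was -1.94 for macroangiopathy against diabetic aorta. Against macroangiopathy it was 1.05 for SHENQI, -2.15 for yangyinyiqi, -0.891 for huoxue and 0.726 for rosiglitazone. Over all genes tested it lay between -0.0341 and 0.0252 in each of the 7 comparisons. The members moved together over the arrays, as given below, so their median does not rest on 7 separate readings. The treatment comparisons share the 3 macroangiopathy arrays.

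**Figure D2:**
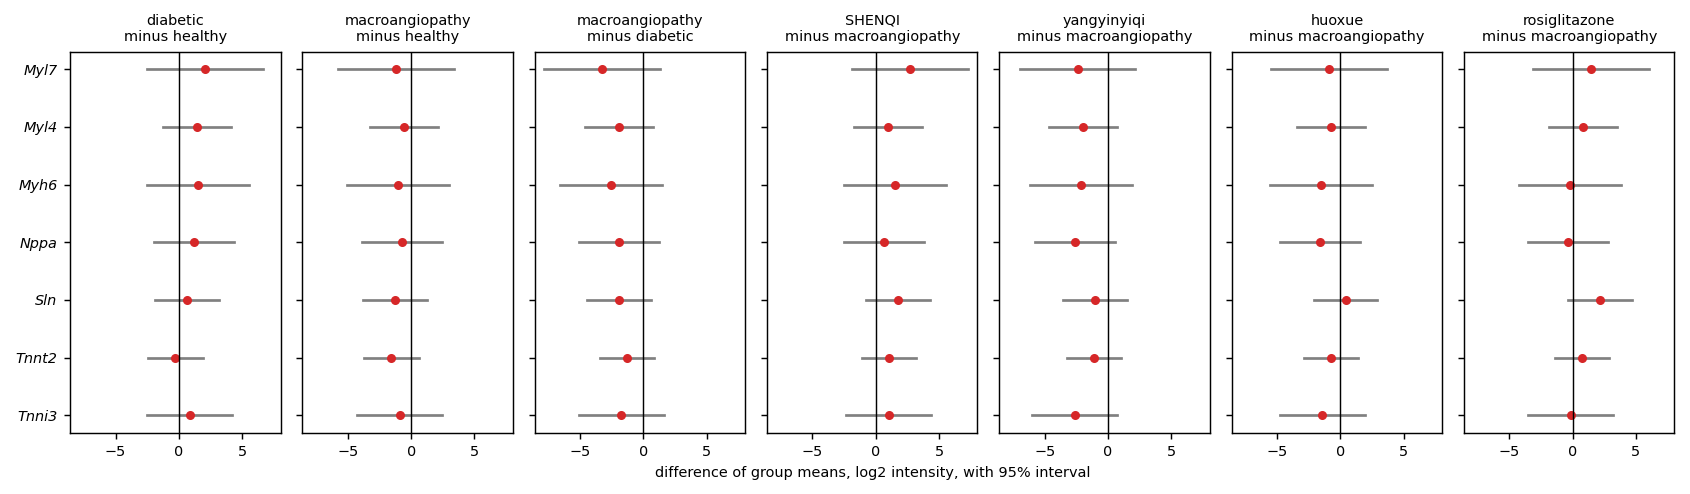
Differences of group means in log2 intensity (horizontal axis, with 95% intervals from the limma fit) for the 7 genes (vertical axis) in the 7 aorta comparisons, 3 arrays against 3. All 49 intervals include 0.

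Macroangiopathy array 3 decided several of these values. Without it, the Myl7 difference of D vs C was -5.26, and all 7 members passed an unadjusted p of 0.05 in that comparison, against 0.481% of all genes, although none passed after adjustment. Without macroangiopathy array 1 instead, the same Myl7 difference was -0.673. Without array 3 the Myl7 difference of C vs A was -0.395, against -3.27 with it, that of B vs C changed from 2.72 to -0.152, that of F vs C from 1.43 to -1.44 and that of C vs G from -1.19 to 1.68. Macroangiopathy array 1, at the other end, moved the C vs A comparison, in which 4 of 7 members passed the unadjusted threshold without it, against 2.22% of all genes. The Myl7 difference was then -4.99, and no member passed after adjustment. The Myl7 difference of E vs C changed from -0.89 to 0.828 without array 1, to 0.261 without macroangiopathy array 2 and to 0.675 without huoxue array 2.

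Within groups the members were among the most variable genes of the aorta arrays. The residual SD of Myl7 around its group means was 2.87 on the log2 scale, the 12th largest of 15815 genes, against a median of 0.364 over all genes. Myh6 ranked 40th with 2.54, Tnni3 94th with 2.11 and Nppa 126th with 1.99. Myl4 ranked 239th, Sln 297th and Tnnt2 473rd. The fast skeletal muscle genes spread as widely, from Mylpf at rank 5 with 3.05 to Casq1 at rank 383 with 1.45. Group means accounted for 35.6% to 43.8% of the variance of the members over the 21 arrays, and for a median of 29.7% over all genes, where 7 groups of 3 take a share of the variance even of noise. In skeletal muscle, where Myl7 and Nppa were not tested, the residual SD was 0.432 for Sln and 0.348 for Myh6, ranks 1379 and 2577 of 14172 genes. It was 0.251 for Tnnt2, 0.234 for Tnni3 and 0.207 for Myl4, against a median of 0.221.

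The 7 genes moved together. Each member was centred on its mean over the aorta arrays and the 7 values were averaged for each array. This average was highest in SHENQI array 1, at 2.54, and lowest in macroangiopathy array 3, at -3.75. It lay between 0.15 and 2.54 in 13 arrays and between -3.75 and -1.13 in the other 8. The 13 comprised all diabetic and SHENQI arrays, healthy arrays 2 and 3, macroangiopathy arrays 1 and 2, rosiglitazone arrays 2 and 3 and huoxue array 3. The library labelled healthy aorta 1, which was low in smooth muscle genes, was at -1.13. Arrays of 1 slide differed as widely. The 4 arrays on slide 6, of macroangiopathy and yangyinyiqi aorta, ran from -3.75 to 2.19 and the 4 on slide 10 from -2 to 2.08. On slide 9 all 4 arrays, of huoxue and yangyinyiqi aorta, were low, between -3.18 and -1.2.

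Between pairs of members other than Sln, the Pearson correlation over the 21 aorta arrays was 0.874 to 0.965 in 15 pairs, using the brightest probe. These values describe arrays that share their slides and normalization. The pairs that include Sln were looser, from 0.567 with Nppa to 0.784 with Myl7. For Sln, the bright probe read 10.99, 12.8 and 13.78 in healthy, 12.62, 14.35 and 13.52 in diabetic and 13.62, 11.86 and 4.67 in macroangiopathy aorta. It read 14.46, 13 and 11.72 after SHENQI and 5.32, 9.9 and 10.44 after yangyinyiqi. It read 14.42, 5.82 and 12.6 after huoxue and 15.76, 12.6 and 13.84 after rosiglitazone. The range was 2180-fold.

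Huoxue array 1 and rosiglitazone array 1 stood off the common line. Their Sln levels were 14.42 and 15.76, the second the highest of all, while Myl7 was at 9.52 and 9.46 and the brighter Nppa probe at 5.01 and 4.91, near its low end. In these arrays the fast skeletal muscle genes averaged 11.42 and 13.16, against a median of 9.63 over the aorta arrays. Without these 2 arrays, which were picked after their values were seen, the pairs with Sln had correlations of 0.887 to 0.964 over 19 arrays, and the other pairs 0.885 to 0.981. Diabetic array 2 had the highest fast skeletal mean, 14.33, together with high Myl7, 14.55. A healthy array had a fast skeletal mean of 11.84, above that of huoxue array 1, while Sln in the healthy arrays was 10.99 to 13.78. The part of skeletal muscle RNA in the Sln signal was not tested.

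**Figure D3:**
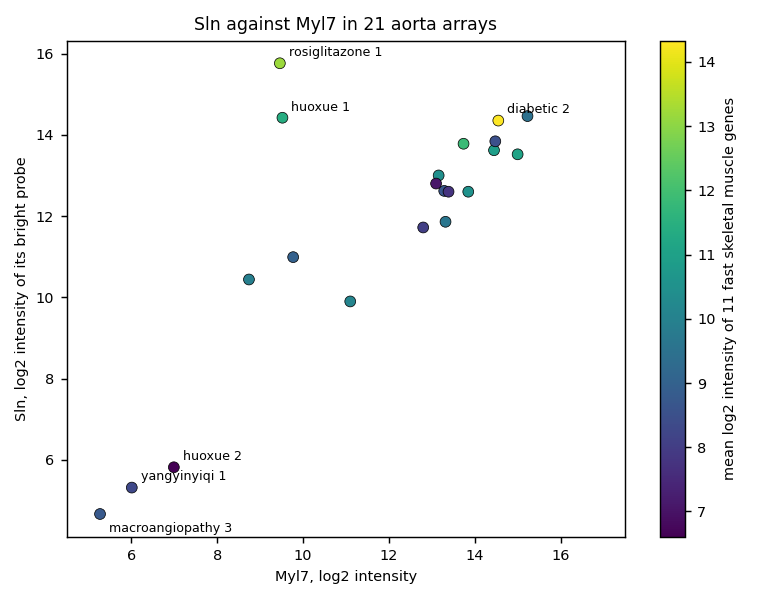
Log2 intensity of the bright Sln probe (vertical axis) against that of Myl7 (horizontal axis) in the 21 aorta arrays, coloured by the mean log2 intensity of 11 fast skeletal muscle genes. Huoxue array 1 and rosiglitazone array 1 lie above the other arrays, with Sln at 14.42 and 15.76 and fast skeletal means of 11.42 and 13.16.

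Among the 15313 other genes tested in aorta, those most like the member average were heart muscle genes in the main. Mybphl, a myosin-binding protein H-like gene of the atria, came first, with a Pearson r of 0.975 and a Spearman rho of 0.964 over 21 arrays and levels from 4.12 to 10.12. Tecrl followed with 0.968, then Tnnc1, the troponin C of heart and slow muscle, with 0.948, and Mybpc3, the cardiac myosin-binding protein C, with 0.94. Ankrd1, an ankyrin-repeat protein of the heart, had 0.91 and Pln, phospholamban, the inhibitor of the cardiac calcium pump, 0.908. Lrrc10 had 0.904, Fndc5 0.897 and Doc2g 0.884. In all, 13 of 15320 genes exceeded 0.9, and 6 of them were members, each of which is part of the average. Against the average of the other members, r was 0.682 for Sln and 0.912 to 0.981 for the rest. The median r over all genes with the member average was 0.0202. With the slide means removed, the genes from Mybphl to Doc2g had r from 0.857 to 0.97. Without the 2 arrays farthest from the median, macroangiopathy 3 and yangyinyiqi 1, they had r from 0.875 to 0.983.

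Other genes of the heart followed the members to different degrees. Of the other atrial genes on the array, 9 of 12 were tested. Kcnj3, a subunit of the acetylcholine-gated potassium channel, had an r of 0.84 with the member average. Fgf12 had 0.683, the transcription factor gene Tbx5 0.673 and the potassium channel gene Kcna5 0.409, which was also the median of the 9. Gja5 had 0.135, Hcn4 0.0988 and Dkk3 0.0775. Clu ran the other way, at -0.531. Bmp10, a growth factor of the atrial wall, was well above background on 2 of 21 aorta arrays and Kcnj5 on 0. Over 20 other cardiac genes the median r was 0.572, with Nkx2-5, a heart transcription factor, at 0.722 and the cardiac calcium release channel Ryr2 at 0.739. Actc1, cardiac actin, which smooth and developing muscle can also make, was at 0.077, with a median level of 14.19.

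The other ventricular genes had lower correlations with the members than Pln. Myl2, the ventricular regulatory light chain, ranged from 4.15 to 12.63 with an r of 0.418, Myh7 from 6.07 to 14.14 with 0.4, and Myl3, the ventricular essential light chain, from 5.93 to 13.6 with 0.0981. Slow skeletal muscle makes these 3 genes too. The highest Myl2 and Myh7 levels, 12.63 and 14.14, were in diabetic array 2, which also had the highest slow skeletal mean, 11.84. That mean includes Myl2, Myl3 and Myh7 themselves, so it is not a separate reading. In SHENQI array 1 and macroangiopathy array 1, which had some of the highest member averages, 2.54 and 2.19, Myh7 was at 11.63 and 11.31 and Myl2 at 8 and 8.96. In rosiglitazone array 3, also high in the members, Myh7 was at 6.98 and Myl2 at 5.06. Nppb, the natriuretic peptide that the ventricles also secrete, stayed between 5.03 and 6.2 while Nppa spanned 94.4-fold on the mean of its probes. Its r with the member average was 0.338, and the ventricular genes Irx4 and Hey2 had 0.263 and 0.0366. Smooth muscle genes had Pearson correlations from -0.0508 to 0.031 with the member average, and endothelial genes from 0.0655 to 0.438. The smooth muscle values include healthy array 1, with its low smooth muscle mean. By ranks, the Spearman rho of the smooth muscle genes was negative throughout, from -0.274 for Myh11 to -0.074 for Lmod1.

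**Figure D4:**
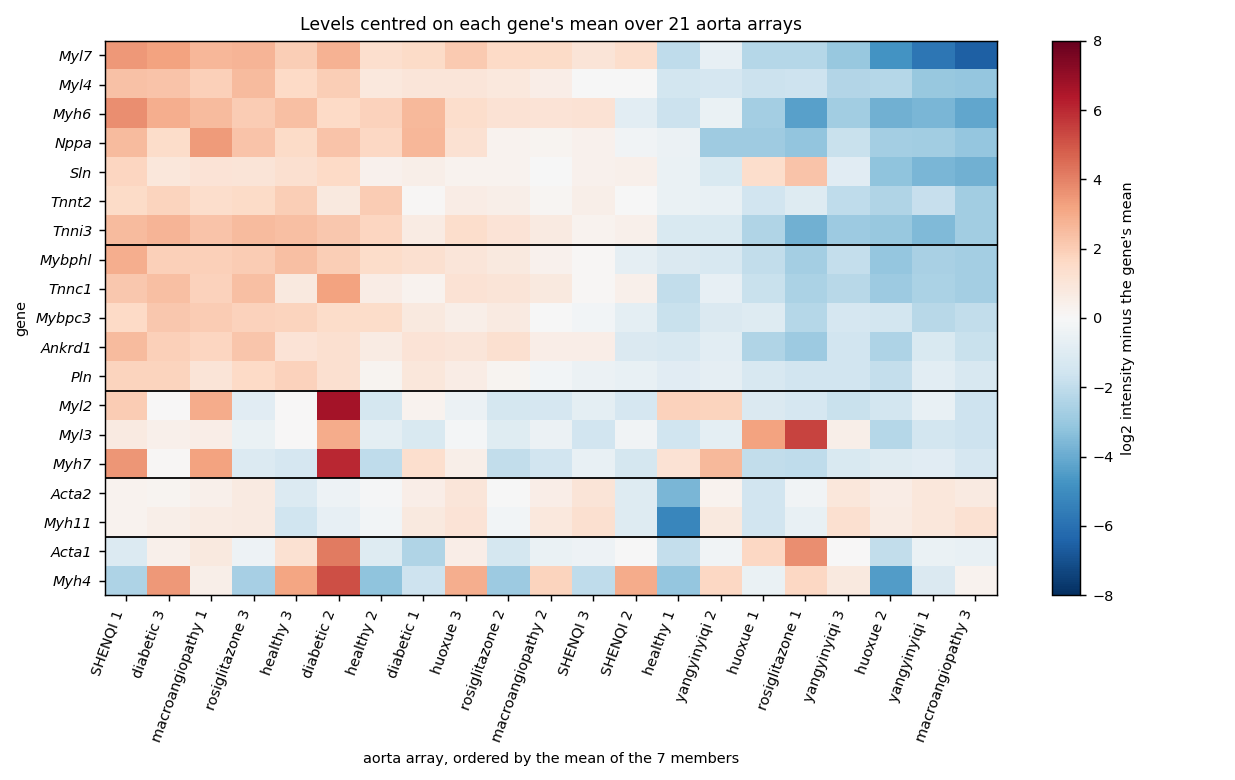
Log2 intensity of each gene minus its mean over the 21 aorta arrays (colour), with genes in rows and arrays in columns ordered by the average of the 7 members. Lines set apart the members, 5 heart genes with r from 0.908 to 0.975 with that average, the ventricular genes Myl2, Myl3 and Myh7, the smooth muscle genes Acta2 and Myh11, and the fast skeletal genes Acta1 and Myh4. The first 2 blocks fade from left to right together, apart from Sln, which is high in huoxue array 1 and rosiglitazone array 1. The smooth muscle block is low in healthy array 1.

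Of the heart lists, 9 other atrial, 23 other cardiac and 7 ventricular genes were tested in aorta. Among these, 2 genes passed the adjusted threshold in an aorta comparison, both in C vs G, where 6.42% of all genes passed. Dkk3, listed as atrial, was higher in macroangiopathy by 2.26 on the log2 scale (SE 0.624, limma adjusted p = 0.0412), and Hspb7, a small heat shock protein of heart and other muscle, by 2.27 (SE 0.648, limma adjusted p = 0.047). Their correlations with the member average were 0.0775 and 0.0819. The smooth muscle genes Tagln, Smtn and Lmod1 rose in the same comparison, by 2.62, 2.69 and 2.78 (limma adjusted p = 0.0435, 0.0393 and 0.0444), so 3 of 7 of that list were higher in macroangiopathy, against 3.41% of all genes in that direction. Macroangiopathy and healthy aorta shared no slide, and with slide as a random block none of these 5 passed (limma adjusted p = 0.0672 to 0.0754), with differences of 2.27 for Dkk3 and 2.3 for Hspb7. Without the library labelled healthy aorta 1 none passed either, with 1.55 for Dkk3 and 1.78 for Hspb7 and limma adjusted p values of 0.167 and 0.173. The part of smooth muscle content in Dkk3 and Hspb7 was not tested. None of the 7 ventricular genes passed in any aorta comparison by limma. At an unadjusted p of 0.05, 1 gene passed for A vs G and 1 for C vs G, against 18.7% and 24.1% of all genes.

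Skeletal muscle of the same groups gave a level to set the aorta against. With 14 group means fitted over 42 arrays, all 7 members differed between the tissues, as did 76.6% of all 16145 genes tested by limma, or 78% at an unadjusted p of 0.05. Tnni3 was higher in aorta by 3.67 on the log2 scale (95% interval 2.76 to 4.57, limma adjusted p = 8.56e-09), Myl4 by 1.84 and Tnnt2 by 0.85. Myl7 and Nppa were higher in aorta too (limma adjusted p = 3.86e-12 and 5.92e-08), with sizes given as bounds because their muscle signal was mostly not well above background. Myh6 was lower in aorta, by -3.99 on the log2 scale (interval -5.12 to -2.86), and Sln by -0.97. These are averages over the groups, and on the mean of probes some groups went the other way. In the yangyinyiqi group Myl4 averaged 8.857 in aorta and 9.337 in muscle. Tnnt2 averaged 5.643 and 6.263 in that group, and 6.02 and 6.307 in the huoxue group. Sln averaged 9.257 in aorta and 9.037 in muscle in the diabetic group. The SD over arrays was 3.06 in aorta and 0.485 in muscle for Myl7, so the fit, which shares a spread between tissues, is a rough description. With the 6 healthy arrays alone, 3 of 7 members passed. For Sln the bright probe gave -1.16 (limma adjusted p = 0.0844).

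In skeletal muscle, Myl7 was well above background on 3 of 21 arrays and Nppa on 2, so for most groups there is only a bound. Set against the lowest signal that counted as well above background on each muscle array, or the probe's own signal where higher, Myl7 was at least 271-fold higher in aorta in the rosiglitazone group. The bound was at least 72.8-fold in the macroangiopathy, 30.2-fold in the huoxue and 13.5-fold in the yangyinyiqi group. For Nppa it ran from at least 1.69-fold in the yangyinyiqi to at least 71.6-fold in the diabetic group.

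**Figure D5:**
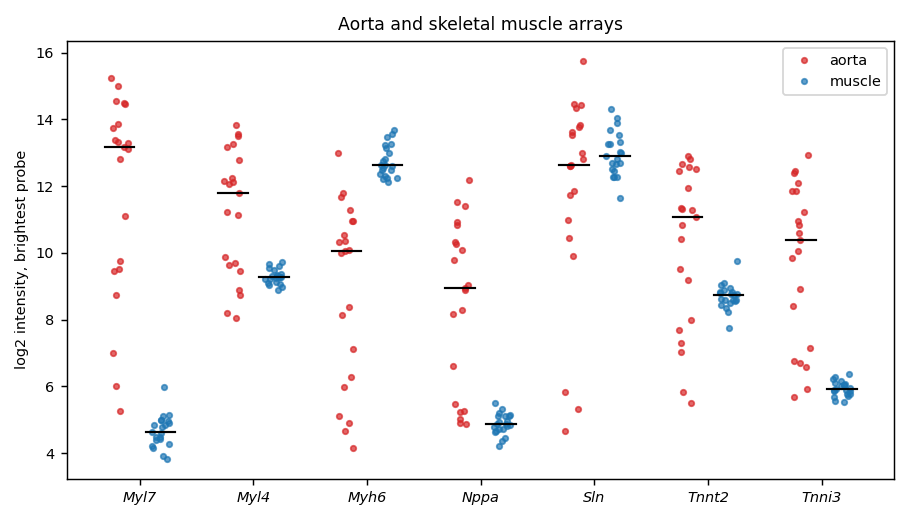
Log2 intensity of the brightest probe of each gene (vertical axis) in 21 aorta arrays (red) and 21 skeletal muscle arrays (blue); black lines are medians. In muscle Myl7 stays between 3.83 and 5.99, and the aorta arrays of Myl7 spread from 5.27 to 15.23.

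Myh6 ran against the other contractile genes in muscle. On the mean of its probes, its log2 intensity there was 11.97 to 13.41 over 20 arrays, above the highest aorta level of 12.41 in most of them. On the brightest probe the muscle median was 12.63, below the highest aorta level of 12.99. Myh7 was near the top of the scale in muscle, between 16.38 and 17.32 in the arrays where it was read. In aorta, diabetic array 2 had the highest Myh7, 14.14, with Myh6 at 10.33. SHENQI array 1 had the highest Myh6, 12.41, with Myh7 at 11.63, and diabetic array 3 had 11.61 for Myh6 and 8.2 for Myh7. The correlation of Myh6 with Myh7 was 0.425 over 21 aorta arrays and 0.584 over 18 muscle arrays.

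In the muscle comparisons 5 of the 7 members were tested, and 0 passed the adjusted threshold by limma in any of the 7. Of all genes, 26% passed it in A vs G and 24% passed in C vs G. The share was 17.1% for E vs C, 4.87% for F vs C and 0% for the others. The unadjusted share was 37.9% for A vs G and 36.3% for C vs G, where no member passed it, and 3.84%, 1.33% and 1.16% in C vs A, B vs C and D vs C, where none did either. At the unadjusted threshold, Myh6 and Sln both passed for huoxue (E vs C), with differences of 0.77 and 0.79, and for rosiglitazone (F vs C), with 0.72 and 0.97. Of all genes 32.5% and 21.1% passed in these comparisons, and 17.2% and 10.8% passed as higher after treatment. The adjusted p values by limma for E vs C were 0.0553 and 0.103, and for F vs C 0.173 and 0.0962. Neither the huoxue nor the rosiglitazone muscle arrays shared a slide with a macroangiopathy array, and slide as a fixed block could not be fitted. With slide as a random block the Myh6 differences were 0.672 for huoxue and 0.736 for rosiglitazone (limma adjusted p = 0.322 and 0.426). The effects in aorta and muscle were also set against each other in 1 fit, and of 49 such differences for the members 0 had an unadjusted limma p below 0.05, the smallest being 0.107.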

How the data were processed

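Aorta and skeletal muscle RNA of 7 groups was hybridised by the authors to 42 arrays on 11 slides. The deposited scanner files hold the intensity of 45018 spots, of which 1639 are controls, with local background and the software's marks (Agilent Feature Extraction 10.7 per the labels). A series table, deposited by the authors in log2 units, served as an alternative. Irregular spots were set to missing, median intensities were corrected by normexp (offset 0), quantile normalised over 42 arrays and log2 transformed, with limma 3.58.1 in R 4.3.3. Irregular spots were masked before the correction because a few with very high background otherwise drew the fitted background mean to -659 and raised the floor of Myl7 from 5.27 to 7.07. This step was chosen after seeing the data. A gene is the mean of its probes, and a probe missing on over 3 arrays was left out. To be tested, a gene needed 1 probe called well above background on each of a group's 3 arrays, with each tissue in its own fit of 21 arrays with lmFit and eBayes, at an adjusted p of 0.05. Myh6 was missing on 1 muscle array. Heart lists, cell type lists and the rule for named genes (all members, heart list genes called in aorta or else the 3 with the widest range, and the 10 genes most like the members) were set with earlier results of these data known. A named item was withheld and is not reported here. Nothing says more than that the samples of a group are separate mice, and the number of arrays limits precision. The fit was tested on simulated data. Alternatives were another offset, the processed signal at its 75th percentile, normalisation within tissue, the authors' table, other filters, the brightest probe, other sets of arrays, slide and replicate blocks, other eBayes options and each array left out.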

Additional observations from a re-analysis of the deposited data

How the results depend on the processing

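In aorta, 0 members were called in each of the 7 comparisons under all 144 alternative values, with a smallest adjusted p of 0.151, and under the replicate block the count was also 0 in each. Whether equal numbers mark tissues of the same mouse is not known. Deviations of aorta and muscle arrays of a group with the same number correlated from -0.358 to 0.167, and 3 of 21 exceeded 0.1. These values cannot decide it, because the tissues of a mouse may vary separately. The block moved no other call. The sign of the Myl7 differences in aorta turned when single arrays were left out, with ranges of -0.152 to 4.44 for B vs C, -2.91 to 1.68 for C vs G, -3.76 to 0.828 for E vs C and -1.44 to 3.15 for F vs C. The other ranges were 0.854 to 2.84 for A vs G, -4.99 to -0.395 for C vs A and -5.26 to -0.673 for D vs C. With slide as a fixed block the differences were -8.08 for F vs C, -6.67 for E vs C, -5 for D vs C and 0.93 for A vs G. All macroangiopathy aorta arrays were on slide 6, where yangyinyiqi array 1, at 6.01, was the only array of another group. The fixed-block differences from the macroangiopathy group therefore all rest on that array. Causes of the changes in the Myl7 differences were not tested beyond the arrays named. That block could not be fitted for C vs G, C vs A and B vs C in aorta, A vs G, C vs G, E vs C and F vs C in muscle, nor for the tissue contrast. Between tissues the count of 7 became 3 with the 6 healthy arrays alone, which has fewer samples and includes the library labelled healthy aorta 1. It was also 3 with probes well above background on all arrays, which tests 3 members. In muscle, E vs C had 1 member called with trend and robust options, masking after correction, an offset of 50, the strict filter, the processed signal, the authors' table and the brightest probe, and 2 with the 6 arrays alone, while single arrays left out gave 0 to 1, with 1 without huoxue muscle array 1. F vs C had 1 with the 6 arrays alone. With the 12 arrays of both tissues and tissue as a term, Myh6 in E vs C was -0.387. The causes were not tested. Nppa levels in the yangyinyiqi aorta arrays lay near background, which limits the reading of that gene there.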
